A study of Drosophila melanogaster with 3 samples.

Results

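Small nucleolar RNA (snoRNA) genes and the genes that carry them were examined for binding of CG2120 in Drosophila melanogaster embryos. The annotation of the release 6 genome holds 257 genes whose symbol begins with snoRNA:, of 24254 genes of all types. For each one, the summits of the optimal peak list were sought up to 500 bp from its 5' end and up to 500 bp from any transcription start site (TSS) of the gene that contains it. That gene, called the host here, was the shortest protein coding or long non-coding RNA gene on the same strand whose span holds the whole snoRNA. By this rule 236 snoRNA genes had a host, in 82 different host genes, and 21 had none.

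The series is a chromatin immunoprecipitation followed by sequencing (ChIP-seq) of 3 biological replicates, which make up 1 group. Whole embryos aged 18 to 24 h came from a transgenic line that stably expresses CG2120 with GFP fused to its C terminus, and an antibody against GFP was used on chromatin sonicated to 200 to 800 bp. The promoter that drives the fusion and the state of the endogenous gene were not given in the sources used here. Whole embryos mix all tissues, so a summit does not say in which cells it arose, and no untagged line was analysed here. The authors deposited peak lists, with 8340 peaks in the optimal list, 30000 in the full lists of replicates 1 and 2 and 27353 in that of replicate 3. The lists hold no read counts, so the depth behind each peak is unknown. To compare replicates at 1 length, the 8340 strongest peaks of each were used, and ranks within a replicate's full list are given with 1 as the strongest.

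SnoRNAs are short non-coding RNAs of the nucleolus that guide chemical changes of ribosomal RNA by base pairing. Box C/D snoRNAs carry the C and D boxes and direct 2'-O-methylation by the methyltransferase fibrillarin, whereas box H/ACA snoRNAs end with an ACA box and direct pseudouridylation by dyskerin. In flies most are cut out of the introns of a host gene, so the host's promoter makes the precursor, and many hosts encode ribosomal proteins or, as the Uhg genes (U snoRNA host genes), no protein at all. Independent transcription of a snoRNA gene is also known, U3 being the usual example.

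The 2 large classes are told apart below by their symbols, and a set of sequences from each is shown. Many guides sit in series along introns, away from the start of the host, as those of the first set do. The first set lies on the plus strand in Arpc2, which encodes a subunit of the actin-nucleating Arp2/3 complex and holds 17 H/ACA snoRNAs, more than any other host. Its 17 comprise 10 copies of Psi18S-525 and 7 of Psi18S-640, named for a pseudouridine of 18S ribosomal RNA. The copies of Psi18S-525 are 130 to 137 nt long, and the longest run shared by all 10 is cggcatcctg, 10 nt. In the 3 copies shown, from chr2L:20418348-20418481, chr2L:20418670-20418804 and chr2L:20418834-20418967 of the dm6 build, capitals mark the ACA box 3 bases before the 3' end.
snoRNA:Psi18S-525a: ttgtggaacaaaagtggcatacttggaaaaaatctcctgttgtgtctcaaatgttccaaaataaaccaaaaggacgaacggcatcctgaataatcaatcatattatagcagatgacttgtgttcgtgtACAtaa
snoRNA:Psi18S-525b: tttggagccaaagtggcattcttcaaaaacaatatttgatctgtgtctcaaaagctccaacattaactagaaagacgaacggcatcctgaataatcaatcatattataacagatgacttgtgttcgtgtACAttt
snoRNA:Psi18S-525c: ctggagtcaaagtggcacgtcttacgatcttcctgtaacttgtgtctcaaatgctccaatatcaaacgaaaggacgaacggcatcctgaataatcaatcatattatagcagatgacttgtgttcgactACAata

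The second set shows 3 of the 5 box C/D snoRNAs of RpL28, a gene for a protein of the large ribosomal subunit, on the minus strand. They lie at chr3L:3221771-3221847, chr3L:3222475-3222541 and chr3L:3222263-3222329. Or-CD11a and Or-CD11b overlap an annotated exon of RpL28 and lie 39 and 34 bp from one of its TSSs. Me28S-C3351 lies in an intron, 448 bp from one. Capitals mark an exact C box, TGATGA, in the first 20 bases and an exact D box, CTGA, in the last 15 bases. All 3 hold the D box, and Or-CD11a alone holds the C box in this exact form.
snoRNA:Me28S-C3351: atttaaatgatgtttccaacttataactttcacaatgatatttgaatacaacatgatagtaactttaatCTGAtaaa
snoRNA:Or-CD11a: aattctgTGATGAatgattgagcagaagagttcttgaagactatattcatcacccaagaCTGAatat
snoRNA:Or-CD11b: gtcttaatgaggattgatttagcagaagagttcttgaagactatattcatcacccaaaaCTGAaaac

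Summits were frequent at the promoters of the hosts and less frequent at the snoRNAs themselves, where the share was near that of the genome. Of the 82 hosts, 55 had an optimal summit at a promoter, meaning at most 500 bp from any TSS (67.1%, exact binomial 95% interval 55.8 to 77.1%), against 34.0% of all 13968 protein coding genes by the same measure. The 72 protein coding hosts had one in 51 cases (70.8%, 58.9 to 81.0%). For the 10 non-coding hosts the count was 4, beside 10.6% of all 2484 long non-coding RNA genes. The 55 hosts, called bound below, carry 178 of the 257 snoRNA genes (69.3%). In contrast, 22 snoRNA genes had a summit within 500 bp of their own 5' end (8.56%, 5.44 to 12.7%), where 31.5% of protein coding genes had one at the 5' end. Of the genome, 5.59% lay within 500 bp of a summit, a share inside the snoRNA interval. No test was run on these shares, which describe 1 group. Several snoRNAs share a host and its promoter, and every interval covers counting error only.

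The 3 replicates gave nearly the same numbers. Among their strongest peaks 57, 56 and 55 hosts were bound in replicates 1, 2 and 3 (68.3% ± 1.22, SD, n = 3), and 22, 27 and 22 snoRNA genes had a summit near the 5' end (9.21% ± 1.12, SD, n = 3). Of the 55 bound hosts, 50 were bound in the strongest peaks of all 3 replicates. A replicate's rank for a host is that of its strongest peak at any of the host's TSSs, and in 11 of the 55 this was, in at least 1 replicate, another summit than the one within 100 bp of the optimal summit. By summits matched within 100 bp, 49 of the 55 were in the strongest peaks of all 3 replicates. With the longer full lists, which include background peaks, 76, 77 and 74 hosts had a promoter summit, while the share of protein coding genes bound at a TSS rose to between 52.2% and 55.8%. In these lists 81, 67 and 58 snoRNA genes (31.5%, 26.1% and 22.6%) had a summit near the 5' end. The shares of the genome within 500 bp of a summit were 17.9%, 17.6% and 17.0%.

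**Figure D1:**
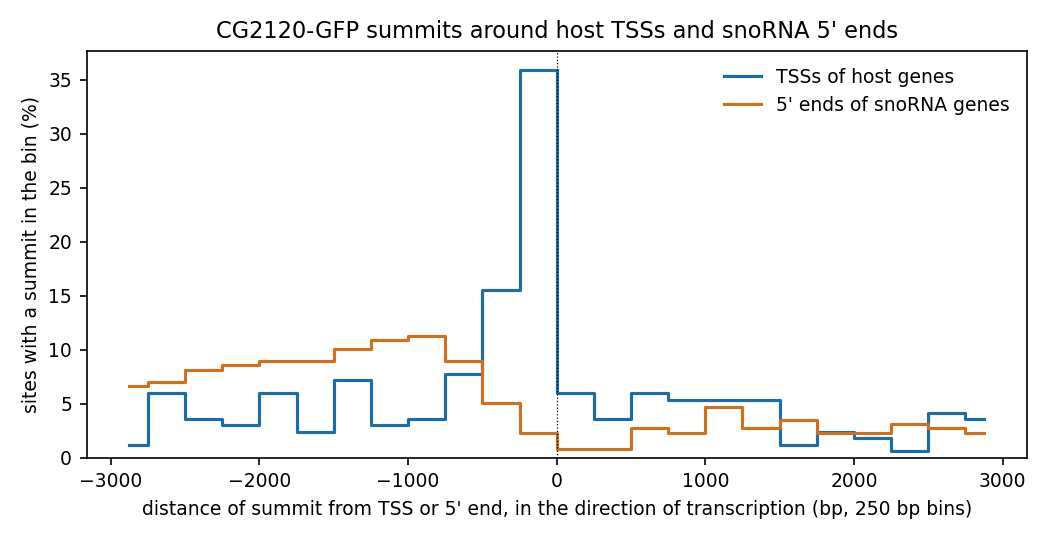
Share of snoRNA 5' ends and of host TSSs (y axis, %) with an optimal summit in each 250 bp bin of distance (x axis, bp, negative upstream). Host TSSs peak in the bin just upstream, at 35.9%, where snoRNA 5' ends are at 2.33%.

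Distances show the same contrast. From each host's nearest TSS the median distance to an optimal summit was 116 bp (quartiles 68 and 1859.5 bp, n = 82), and from each snoRNA 5' end it was 1578 bp (910 and 3208 bp, n = 257). The snoRNA 5' ends lay a median of 1422 bp from the nearest TSS of their host (755 and 2637 bp, n = 236), farther than the 500 bp window reaches in most cases. In the profile of summits around each kind of start, host TSSs stand out just upstream and snoRNA 5' ends do not. At the bound hosts the strongest summit lay at a median position of -81 bp, with negative values upstream, and upstream of the nearest TSS in 49 of 55 (89.1%). All 4747 bound protein coding genes gave -112 bp and 87.5%. By replicate the median for hosts was -82, -89 and -104 bp (mean -91.7 ± 11.2, SD, n = 3). The height of the host summits was ordinary for a promoter: their median signal, the caller's own peak value in the authors' list, was 334 (127 to 3244), against 317 for all bound protein coding genes.

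Hosts for ribosomal proteins were bound most often among the families with more than 1 host. These genes encode the structural proteins of the ribosome, the particle whose RNA the snoRNAs modify. Of 28 such hosts 23 were bound (82.1%, 63.1 to 93.9%), and in each replicate's strongest peaks the share was 85.7%. The other protein coding hosts had 27 of 43 (62.8%, 46.7 to 77.0%) and the non-coding ones 4 of 10 (40.0%, 12.2 to 73.8%), and these intervals overlap. Ribosomal protein genes that carry no snoRNA were bound in 47 of 65 cases (72.3%, 59.8 to 82.7%; replicates 69.7% ± 7.27, SD, n = 3), again with overlapping intervals. With genes split by their number of TSSs, 11 of 12 single-TSS ribosomal protein hosts were bound against 22 of 36 without a snoRNA, and 12 of 16 hosts with 2 or more TSSs against 25 of 29. The order of the shares thus differed between the 2 strata. The 44 protein coding hosts outside this family were bound in 28 cases (63.6%, 47.8 to 77.6%; replicates 62.9% ± 1.31, SD, n = 3), above the 33.8% of protein coding genes with no snoRNA.

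Gene structure moved with this difference, and its part in it was not tested beyond a split by TSS number. Protein coding hosts had a median length of 3665.5 bp and 2 TSSs, where protein coding genes without a snoRNA had 2160.5 bp and 1 TSS, and more TSSs give more windows in which to find a summit. Among genes with 1 TSS, 21 of 30 protein coding hosts were bound (70%, 50.6 to 85.3%) beside 27.3% of all protein coding genes. Among genes with 2 or more TSSs the values were 30 of 42 (71.4%, 55.4 to 84.3%) and 52.5%. Neighbouring genes share part of these summits: the strongest summit of 29 of 55 bound hosts (52.7%) also lay within 500 bp of a TSS of another gene, as for 57.6% of bound protein coding genes.

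**Figure D2:**
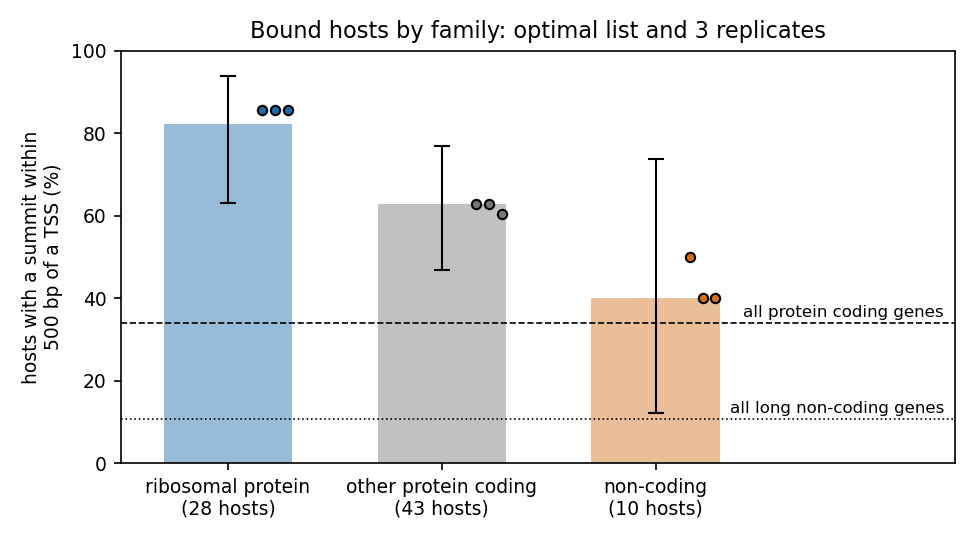
Share of hosts with an optimal promoter summit (y axis, %) for ribosomal protein, other protein coding and non-coding hosts; bars give the optimal list, error bars exact binomial 95% intervals and points the strongest peaks of the 3 replicates. The dashed and dotted lines mark all protein coding genes (34.0%) and all long non-coding genes (10.6%); the translation factor host is left out because it is alone in its family.

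Hosts that hold many snoRNAs had summits of middling height. Arpc2 (FBgn0032859, chr2L:20417057-20423027), with 17 snoRNAs, had a promoter summit of signal 273 that lay 60 bp upstream of the TSS. The matching summits ranked 3280, 6763 and 2641 in replicates 1, 2 and 3, and replicate 2 had a higher one, of rank 4252, at -245 bp. Uhg1, a non-coding host of 16 box C/D snoRNAs, had a signal of 227 and ranks of 3859, 6027 and 3864. RpS5a, for a protein of the small ribosomal subunit and with 14 H/ACA snoRNAs, had 323 and ranks of 2701, 2969 and 3211. All 3 promoters were therefore in the strongest 8340 peaks of every replicate, though none in the strongest 2000. Uhg5, with 11 box C/D snoRNAs, had the weakest summit of the bound non-coding hosts, at a signal of 161 with ranks of 6733, 7007 and 6852. Signals of 431 and 348 were found for kra, a translational regulator with 8 snoRNAs, and Hrb98DE, which encodes an RNA-binding hnRNP protein and holds 7. Uhg4, also with 7, had the highest summit of the non-coding hosts, at 801 with ranks of 607, 843 and 728.

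Of the 20 hosts with 4 or more snoRNAs, 15 were bound (75%, 50.9 to 91.3%), as were 14 of 17 with 2 or 3 and 26 of 45 with 1 (57.8%, 42.2 to 72.3%). The remaining bound hosts with 4 or more snoRNAs had signals from 196 to 971. Nop60B, which encodes the fly dyskerin itself and holds 7 snoRNAs, was at 196, as was CG10576. RpS7 was at 249, RpL3 at 255, RpL17 at 413, RpL28 at 437 and RpS16 at 522, all genes for ribosomal proteins. The upper end was lola, a gene for a family of BTB zinc finger transcription factors, whose ranks were 496, 481 and 549. Uhg8, the fourth bound non-coding host, holds 3 snoRNAs and had a signal of 300 with ranks of 3102, 4120 and 2889.

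**Figure D3:**
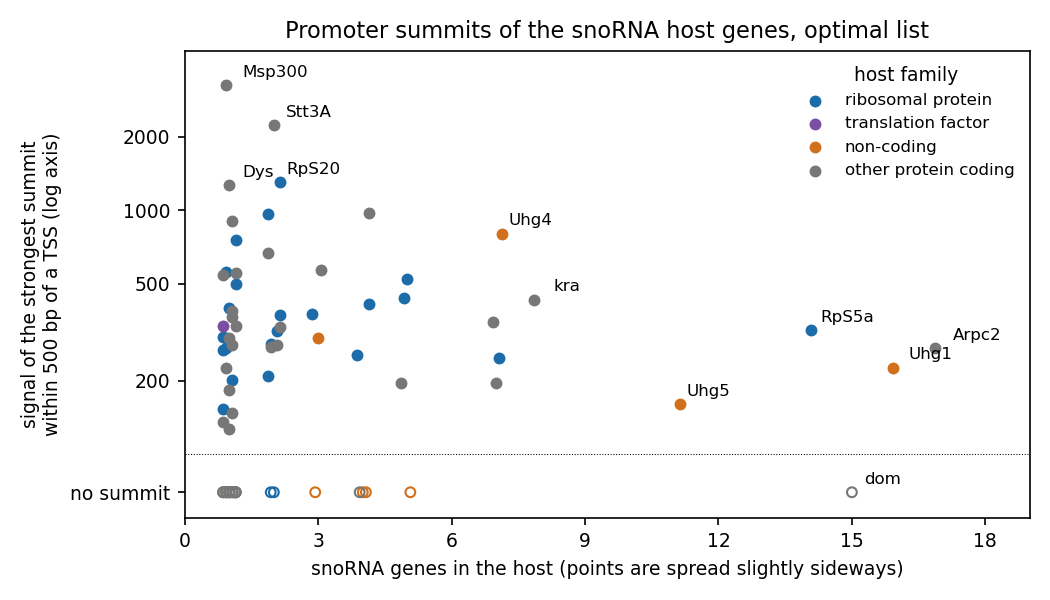
Signal of the strongest optimal promoter summit (y axis, log axis, the caller's value) against the number of snoRNA genes in each of the 82 hosts (x axis), coloured by family; open circles at the bottom are hosts with no such summit. Hosts of 7 or more snoRNAs lie at 801 or below, and the signals above 1000 belong to hosts of 1 or 2.

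The 4 highest host summits belonged to hosts of few snoRNAs, but median signals hardly differed with snoRNA number. They were 319 for the 26 bound hosts of 1 snoRNA, 353 for the 14 of 2 or 3 and 323 for the 15 of 4 or more. Msp300, the gene for a giant nesprin that links muscle nuclei to the cytoskeleton, had the top host signal of 3244 and ranked 39, 44 and 36 in the 3 replicates. Stt3A, for the catalytic subunit of the oligosaccharyltransferase, followed with 2226 and ranks of 95, 86 and 94. RpS20 had 1305 with ranks of 278, 299 and 244, and Dys, the dystrophin gene, 1264 with ranks of 248, 289 and 321. These 4 differ in function and share the presence of a snoRNA in the gene, 2 each in Stt3A and RpS20 and 1 each in Msp300 and Dys. Lower signals among the highest 10 belonged to lola, RpL14 at 962, Uhg4, RpS29 at 753 and drn at 669. Each of the hosts named here had a promoter summit that ranked 1193 or better in every replicate, although for lola in replicate 3 none lay within 100 bp of the optimal summit and for drn the one that did ranked 2328 there.

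Sequences around the highest host summits are shown because their letters hold few of the 7 motifs searched. They cover 50 bases on each side of the summit in dm6, read along the strand of the host, for Msp300 (chr2L:5108118-5108218, plus), RpS20 (chr3R:20821943-20822043, plus) and Dys (chr3R:19460831-19460931, plus). Capitals mark CTTTTT or its reverse complement, a stretch of the kind found at the starts of ribosomal protein genes. Msp300 is not such a gene, and its window is centred at -344 bp from the TSS, away from the start. Msp300 holds 1 such match, and RpS20 and Dys hold none of the motifs within these windows. Many other bound hosts, such as Arpc2, Uhg1 and RpS5a, also held none there. Windows that overlap an annotated exon of any gene, such as that of Stt3A, are not printed.
Msp300: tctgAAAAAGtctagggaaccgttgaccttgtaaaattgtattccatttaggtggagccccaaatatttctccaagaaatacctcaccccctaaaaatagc
RpS20: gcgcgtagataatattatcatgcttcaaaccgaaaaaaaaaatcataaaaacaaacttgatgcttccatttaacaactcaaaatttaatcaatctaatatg
Dys: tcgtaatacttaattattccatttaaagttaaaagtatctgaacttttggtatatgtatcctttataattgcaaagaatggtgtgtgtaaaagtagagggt

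Some other host summits held the DNA replication-related element (DRE), TATCGATA, which is bound by the factor Dref and is common at promoters of growth genes. It lay within 50 bp of the strongest summit in 6 of 55 bound hosts (10.9%), namely Nop60B, RpL28, RpS12, RpL36A, RpS29 and hts, beside 231 of 4120 promoter summits (5.61%). Of the other motifs, described below, CANCNCTA was at 9 of the 55 (16.4%, beside 9.39%) and GGTCACAC at 2 (3.64%, beside 2.82%). Shares at host summits were lower for CTTTTT (12.7%, beside 16.3%), CAGCTG (3.64%, beside 5.85%), GAGAGAG (0%, beside 1.33%) and CAACACTG (1.82%, beside 3.64%). RpL28 (chr3L:3222999-3223099, minus) and RpS12 (chr3L:13023228-13023328, plus) are shown, chosen after their values were seen, with the element in capitals. The windows of RpS12, RpS29 and hts also held CANCNCTA, and its match in the printed RpS12 window is not marked. The summit of RpL28 had a signal of 437 and ranks of 1882 and 1405 in replicates 1 and 2, and in replicate 3 the strongest promoter peak, of rank 3760, lay over 100 bp from it. That of RpS12 had 319 and ranks of 2611, 3402 and 2562. Both lie in the middle of the bound hosts, whose quartiles were 261 and 532.
RpL28: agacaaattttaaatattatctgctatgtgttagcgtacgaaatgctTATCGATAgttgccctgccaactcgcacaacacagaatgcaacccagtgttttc
RpS12: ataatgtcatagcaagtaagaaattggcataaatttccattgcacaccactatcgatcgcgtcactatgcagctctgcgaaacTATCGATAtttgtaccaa

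In promoter windows from 250 bases before to 50 bases after each TSS, searched on both strands, TATCGATA was found in 15 of 55 bound hosts (27.3%) and 3 of 27 other hosts (11.1%). All protein coding genes gave 10.2% and bound ones 17.8%. The looser letters CANCNCTA, part of core promoter motif 7, were in 25 of 55 bound hosts (45.5%) and 5 of 27 others (18.5%), beside 18.4% of all protein coding genes and 31.6% of bound ones. GGTCACAC, the core of motif 1, was in 10 of 55 (18.2%) and 2 of 27, beside 8.69% and 14.5%. CTTTTT was in 36 of 55 (65.5%) and 16 of 27 (59.3%), beside 45.0% and 50.3%, but counted by TSS the order turned, with 38 of 89 bound host TSSs (42.7%) and 41 of 78 unbound ones (52.6%). CAGCTG, an E-box, was in 9 of 55 bound hosts (16.4%) and 4 of 27 others (14.8%), beside 22.3% of all and 30.9% of bound protein coding genes. By TSS this order turned as well, with 8 of 89 (8.99%) and 8 of 78 (10.3%). GAGAGAG was in 5 of 55 (9.09%), beside 9.06% and 11.7%, and CAACACTG in 3 of 55, beside 4.37% and 9.18%. A gene with more TSSs has more windows, matches of different motifs can overlap, and a match is a run of letters only.

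The 27 hosts without an optimal promoter summit include some of the richest in snoRNAs. The gene dom, for a chromatin-remodelling ATPase, holds 15 snoRNAs, and its nearest optimal summit was 547 bp from a TSS, just outside the window, as it was for tou at 554 bp. Within 500 bp of a dom TSS, replicate 1 had no peak and replicates 2 and 3 had peaks that ranked 10229 and 8836. No peak was near a TSS of lncRNA:CR45184 (5 box C/D snoRNAs) or Uhg7 (4) in any replicate. Sf3b3, for a splicing factor subunit, and Uhg2 hold 4 snoRNAs each, and their pooled peaks ranked 10628 and 9139, below the 8340 of the optimal list. Uhg2 ranked 8071, 8390 and 13340 in the replicates, so it was among the strongest peaks of replicate 1 alone.

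Most of the other unbound hosts had a weaker peak. In the pooled list with background, 22 of the 27 had a promoter summit, and the 5 without were dom, lncRNA:CR45184, Uhg7, ect and lncRNA:CR31647. The non-coding host Uhg3, with 3 snoRNAs, ranked 9415 in the pooled list and lncRNA:CR42491 ranked 18245. Among the unbound ribosomal protein hosts, RpL15, RpL5, RpL7A and RpS9 ranked 10754, 10288, 9069 and 9134 there. RpL15 and RpL5 were also the 2 hosts farthest from any optimal summit, at 1254538 and 367372 bp. In 7 of the 27 the strongest peaks of at least 1 replicate held a promoter summit. RpL7A was the nearest case among ribosomal protein genes, with ranks of 7201, 13593 and 7264.

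A few bound calls rested on fewer replicates. CG3902, with the lowest signal of the bound hosts at 127, ranked 5386, 7093 and 14104. Prp39, a splicing factor gene, ranked 9049, 6414 and 5946, and Arf1, a small GTPase of vesicle traffic, 7627, 11057 and 3637, with 16075 for the matching summit in replicate 2. These 3 were outside the strongest 8340 peaks in 1 of the 3 replicates. The remaining 2 of the 5 not bound in all replicates were pAbp, for the poly(A)-binding protein, and RpS6. Each had its strongest optimal promoter summit 471 bp from a TSS, near the edge of the window. For RpS6 this was the nearest summit, whereas pAbp had another optimal summit 28 bp from a TSS. The promoter peaks of pAbp and RpS6 ranked 11245 in replicate 3 and 13375 in replicate 1. The summits that match the strongest optimal one ranked 1163 and 3418 there.

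How often a summit was near a snoRNA varied with the distance from the host's start. Of the 35 snoRNA 5' ends within 500 bp of a TSS of their host, 9 had a summit within 500 bp (25.7%, 12.5 to 43.3%). None of the 48 between 501 and 1000 bp did, which allows a share of up to 6.25%, although 28 of their 35 hosts were bound. From there to 2000 bp it was 2 of 72 (2.78%, 0.338 to 9.68%), and farther away 4 of 81 (4.94%, 1.36 to 12.2%). The intronic bases of all protein coding genes at the same distances from a TSS lay within 500 bp of a summit in 24.3%, 12.7%, 9.75% and 3.90%. Those of the protein coding hosts did in 43.4%, 18.0%, 13.1% and 5.28%. The non-coding hosts, which hold 55 snoRNAs, are not in these intronic shares. Over 500 bp from the host TSS, 6 of 201 snoRNA 5' ends had a summit (2.99%, 1.10 to 6.38%). The share was 5.01% for all intronic bases of protein coding genes over 500 bp from a TSS. Of those bases 49877739 lay past 2000 bp, against 3639451 and 5736327 in the 2 nearer bins. Of the 201 snoRNA 5' ends 81 did, so the 5.01% is not matched to their distances. Up to 2000 bp the snoRNA shares were below the intronic shares of the protein coding hosts, and past 2000 bp the interval includes that share. In the first bin the interval ended at 43.3%, next to the host share of 43.4%. The snoRNAs of the 4 bins came from 25, 35, 37 and 27 hosts, and the intervals do not allow for shared hosts, so they are too narrow for a close comparison.

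**Figure D4:**
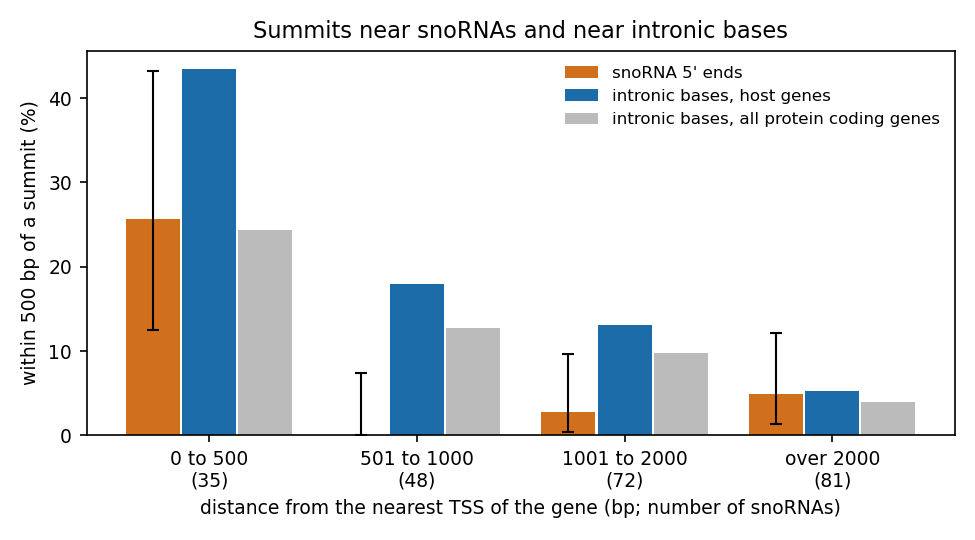
Share with an optimal summit within 500 bp (y axis, %) for snoRNA 5' ends and for intronic bases of all protein coding genes and of the protein coding hosts, by distance to the nearest TSS of their gene (x axis, bp); error bars on the snoRNAs are exact binomial 95% intervals. The snoRNA share is 25.7% in the first bin and 0% of 48 in the next, where the intronic bases of protein coding hosts are at 18.0%.

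The 22 snoRNA genes with a summit near the 5' end fall into 12 in bound hosts, 3 in unbound hosts and 7 with no host. They share 20 distinct summits, the nearest summit was upstream in 18, and 17 were found in the strongest peaks of all 3 replicates. In 9 of them a TSS of the host lay within 500 bp. Among them were Psi28S-2949, the first snoRNA of Uhg4, Me28S-G3081a of Uhg1, Psi18S-1275 of RpS29 and Me28S-A774b of RpS12, whose summits lay 199, 216, 347 and 302 bp away. Me18S-C1366 and Me28S-C3227a of Uhg5 lay 132 and 438 bp from its promoter summit, Psi28S-1060 and Psi28S-1232 of RpL17 428 and 386 bp from a summit of signal 144, and Psi18S-920 of RpL10Ab 468 bp from the one that its host shares with CG11597. The H/ACA gene Psi28S-1153 and 2 genes of no stated class, FBgn0263472 and FBgn0263459, all without a host, shared 1 summit of signal 206 that lay 390 bp from the TSS of CG13334. At the edge of the window, Or-ACA6 was inside at 495 bp and Psi28S-1153 at 469 bp, and Or-CD13 was outside at 502 bp and Or-CD11a at 508 bp.

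Of the 257 snoRNA genes, 10 had a near summit that was over 500 bp from every TSS of a protein coding or long non-coding gene (3.89%, 1.88 to 7.04%), with 11 distinct summits. The replicates' strongest peaks gave 7, 11 and 9 (3.50% ± 0.778, SD, n = 3). Of the genome, 5.59% lay within 500 bp of any optimal summit. The share near summits away from every TSS was not computed, so the 3.89% has no matched background. One case was Arpc2, where summits of signal 278 and 143 lay 840 and 1039 bp downstream of the first TSS, in the intron ahead of the snoRNA array. The first of them ranked 4239, 3339 and 3364 in the replicates, and the second 11648, 6955 and 5849. They were near Psi18S-525a, and the second also near Psi18S-640a, but the other 15 copies farther along had no summit within 500 bp. In the map of Arpc2 the array itself held no optimal summit.

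**Figure D5:**
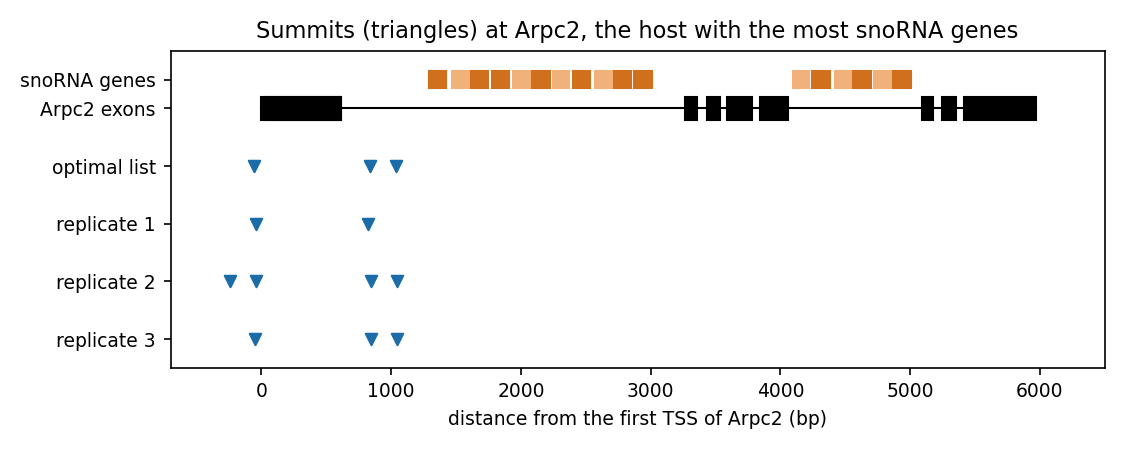
Map of Arpc2 by distance from its first TSS (x axis, bp), with exons, the 17 snoRNA copies (dark, Psi18S-525; light, Psi18S-640), optimal summits and the summits among the strongest 8340 peaks of each replicate. Optimal summits lie at -60, 840 and 1039 bp, ahead of the first snoRNA at 1291 bp.

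Outside Arpc2 these snoRNAs were scattered. The snoRNA gene FBgn0065076, which has no host and lies 22 bp from a summit of signal 447, ranked 1714, 2221 and 1745, and the nearest TSS to that summit was 13098 bp away. Or-ACA6, also with no host, had the highest summit of the 10, at a signal of 847 with ranks of 636, 632 and 631, though 495 bp from it. Or-ACA9 in an intron of AdamTS-A, a metalloprotease gene whose own promoter had no optimal summit, had 498 and ranks of 1462, 1704 and 1652. In tn, which encodes a TRIM family protein of muscle, abba-a had 219 with ranks of 4062, 5891 and 3984. These 4 were found in the strongest peaks of every replicate.

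The rest had low signals. Me18S-C1968 in Swim held a summit of signal 171 inside its own sequence, with ranks of 6786, 5927 and 5830. Psi18S-176, the other snoRNA with a summit inside, had 141. Its matching summits ranked 9403 and 9316 in replicates 1 and 3, and replicate 2 had none within 100 bp but a nearby one of rank 5934, so the gene was near the strongest peaks of replicate 2 alone. Psi28S-2622 had 124, close to the lowest signal of the optimal list, 123, and Or-CD4 in Uhg5 had 168. Ranks of Or-CD4 were 11076, 4988 and 4982, and those of Psi28S-2622 were 7741, 7281 and 8966.

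SnoRNA genes with no host had a summit in 7 of 21 cases, beside 8.56% of all snoRNA genes and 5.59% of the genome. These 7 are not separate sites, as 3 of them share the summit 390 bp from the TSS of CG13334. The unhosted genes without a summit include all 3 copies of U3, the box C/D snoRNA that acts in processing of the ribosomal RNA precursor. The nearest optimal summits to U3:54Aa, U3:54Ab and U3:9B lay 1197, 3084 and 14867 bp away. Weak peaks near U3:54Ab ranked 27833, 23748 and 26787 in the replicates, and near U3:9B the ranks were 10520, 6917 and 15470. U14, which also acts in precursor processing, has 2 copies in Uhg2, U14:30Ea and U14:30Eb, at 771 and 512 bp from an optimal summit of signal 124 that lay 68 bp from a TSS of mtDNA-helicase. The other unhosted snoRNAs without a near summit were Or-CD14, Me18S-G1506, Me28S-C2789, Or-ACA7, Or-CD13, Or-CD17, Or-aca4, Me18S-A1806, Or-ACA8, Psi18S-301 and Psi28S-3342, at 502 to 25278 bp.

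By class, 6 of 112 box C/D genes (5.36%, 1.99 to 11.3%) and 12 of 115 H/ACA genes (10.4%, 5.51 to 17.5%) had a summit near the 5' end, and the intervals overlap. The strongest peaks of the replicates gave 7.74% ± 0.515 and 8.99% ± 1.33 (SD, n = 3). Bound hosts held 71 of 103 hosted C/D genes (68.9%) and 87 of 106 hosted H/ACA genes (82.1%), but counted by host the values were 23 of 39 and 24 of 30. The class comes from the symbol. Exact C and D boxes were found together in 76 of 112 C/D genes and in none of the H/ACA genes, and the ACA box in 106 of 115 H/ACA genes and 2 C/D genes. Symbols of 30 further snoRNA genes give no class, and 4 of these had a near summit.

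Genes for the proteins that work with snoRNAs were bound in 13 of 22 cases (59.1%, 36.4 to 79.3%; replicates 56.1% ± 6.94, SD, n = 3), beside 34.0% of all protein coding genes. Fib, for the methyltransferase fibrillarin, had a signal of 554 with ranks of 1263, 1326 and 1459, and nop5, for another C/D core protein, 184 with ranks of 5568, 4972 and 6806. Of the H/ACA core, NHP2 had 587 with ranks of 998, 1390 and 1448, and Nop10 had 128 with ranks of 8866, 8595 and 8677, outside the strongest 8340 peaks of every replicate. The ATPases pont and rept, which assist assembly, had 608 and 612, and rept ranked 1050, 1215 and 1272. Nopp140, a nucleolar chaperone of these particles, had 501, coil, the coilin of Cajal bodies, 305, and Nufip, an assembly factor, 245. Tgs1, the cap hypermethylase, had 135, and ldbr, which opens the intron lariats from which snoRNAs are released, had 138. CG13097 had the highest signal of the list, 833, with ranks of 760, 707 and 571. Unbound were Nop56 and hoip of the C/D core, Gar1 of the H/ACA core, U3-55K, wcd, Phax, CG10055, CG10341 and CG4866. Fib, nop5 and Nop60B are themselves snoRNA hosts and were bound, so each counts among the 55 hosts as well.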

How the data were processed

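ChIP-seq was done on 3 biological replicates of whole embryos, per the labels. The authors deposited narrowPeak lists for builds dm6 and dm3: 1 per replicate and 1 pooled, labelled as peaks and background, plus an optimal list cut by irreproducible discovery rate (IDR). All were called against 1 control, per the text deposited with each sample. The peak caller and the aligner were not given in the sources used here. Each peak's signal is the authors' deposited value, not scaled between lists, and was used as a rank within a list or a value in the optimal list. The −log10 q values that the authors deposited were not used. Depth is unknown, so intervals (exact binomial, Clopper-Pearson, 95%) cover counting error only, and a share of 0 is given with the limit that 3 counts set.

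Summits are peak starts plus the deposited offset. Genes and TSSs came from Ensembl 115 on the release 6 assembly (dm6), sequence from the RefSeq copy of that assembly, and dm3 lists were not used because the annotation is release 6. Long non-coding genes were RNA genes of at least 200 bp that are not of a small RNA class. Bound genes have an optimal summit up to 500 bp from any TSS. The planned RefSeq promoter table was not used here, and windows of 300 bases were read at Ensembl TSSs in its place. Replicates were compared by their 8340 strongest peaks. Ranks of a gene are those of the strongest peak within 500 bp of a TSS, or of the 5' end for a snoRNA. Classes and families came from symbols, 22 genes were found for the 29 symbols of the snoRNP list, and CAACACTG was added to the motifs after the data were seen.

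The genes named are hosts of 4 or more snoRNAs, the 10 hosts of highest signal, all non-coding hosts, hosts without a summit, snoRNAs with a summit away from every TSS, those with no host, U3, U14 and the snoRNP list. Some genes that this rule takes are not reported here. Others were chosen after their values were seen: hosts bound in fewer than 3 replicates, unbound ribosomal protein hosts and examples of near summits. Members, lists and tests were chosen with earlier results of these data known. There is 1 group, so no test between groups was made. Counts of bound hosts and of snoRNA genes with a near summit were checked on simulated summits planted up to 500 bp from host TSSs. Summits placed far from every gene were checked to give no counts. The edge of the window was not probed, nor was a positive count of summits away from every TSS. Python 3.11.15, numpy 2.4.6, SciPy 1.17.1 and matplotlib 3.10.9 were used.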

Additional observations from a re-analysis of the deposited data

How the results depend on the processing

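The count of bound hosts (55) stayed between 43 and 77, and that of snoRNA genes in them (178) between 130 and 210, under windows of 200 and 1000 bp, stronger peaks, the pooled list, peak overlap, hosts on either strand (59 of 92 hosts), TSSs of transcripts that hold the snoRNA (chosen after seeing the data) and each replicate left out. To leave out a replicate, optimal peaks were kept if the strongest peaks of the other 2 each had a summit within 100 bp. No list was called anew, and these lists were shorter, with 6318 to 6611 peaks. Counts at the snoRNAs moved more. The 22 with a near summit became 7 at 200 bp, 78 at 1000 bp, 8 in the upper part of the list by signal, 70 in the pooled list and 39 by peak overlap, and 18 to 20 with 1 replicate left out. The 10 with a summit away from every TSS became 5, 16, 4 and 47 under the first 4 of these settings, 6 with peaks found in all 3 replicates, and 6 to 8 with 1 replicate left out, the 6 being without replicate 2. Of the genome, 17.9% lay within 500 bp of a summit of the pooled list, and 55.2% of protein coding genes were bound in it. For the optimal list these shares were 5.59% and 34.0%. They were not computed for windows of 200 and 1000 bp or for the upper part of the list. For the moved counts the cause was not tested. No paired analysis was possible because all samples belong to 1 group. Depth per replicate is unknown, and mappability of repeated snoRNA copies was not tested.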
